A study of Homo sapiens with 12 samples.

Results

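The comparison described here sets the 2 libraries of 22Rv1 cells that carried mutated ETV4 (ETV4AAA) against the 2 libraries of 22Rv1 cells that carried eGFP alone. These 4 libraries were chosen by their labels out of 12 in the series. 22Rv1 is a human prostate cancer line derived from the CWR22 xenograft that expresses luminal prostate genes. The tested cells carried the lentiviral construct MSCV-ETV4AAA-IRES-eGFP. The cells they were set against carried MSCV-IRES-eGFP. Both were sorted as eGFP-positive, DAPI-negative (live) cells at 1 week after infection, and polyadenylated RNA was sequenced. The same vector with wild-type ETV4 (ETV4WT) in 22Rv1 gave 2 further libraries, and the same 3 constructs in PC3, a prostate cancer line from a bone metastasis, gave the other 6. The labels do not say which residues differ between ETV4AAA and ETV4WT. The construct is driven by a viral promoter in a whole population of sorted cells. The labels do not say whether replicates came from separate infections or cultures. The p-values below thus measure the spread between replicate libraries, estimated over all 12 in the series, and this spread may be technical.

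ETV4 is, with ETV1 and ETV5, a member of the PEA3 group of ETS transcription factors, which bind DNA at a GGAA core and are known to act downstream of receptor tyrosine kinases and ERK. Cells break PEA3 factors down through the COP1 ubiquitin ligase, and in prostate cancer ETV1 and ETV4 are recurrently activated by gene fusions. Genes such as DUSP6 and the SPRY family, which feed back on ERK signalling, and matrix-degrading enzymes are among the genes long associated with PEA3 factors.

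The 22Rv1 libraries held 44258398 and 41698738 counts with ETV4AAA and 45929158 and 45275349 counts with eGFP, spread over 58302 genes. Mitochondrially encoded transcripts took 8.62% and 9.81% of counts with ETV4AAA and 8.05% and 9.12% with eGFP. Levels are given as CPM, the counts of a gene scaled to a common library size with TMM factors, so 1 count is close to 0.02 CPM. The label of the line was checked by TMPRSS2 and AXL, while many other line markers moved with ETV4AAA. By the test used below, of 10 markers of 22Rv1 against PC3, 7 were lower and 2 were higher. Of 10 markers of PC3 against 22Rv1, 7 were higher and none was lower. TMPRSS2, a surface protease of luminal prostate cells, had 114 and 108 CPM in the ETV4AAA libraries and 128 and 126 CPM in the eGFP libraries, and it had 0 counts in both PC3 eGFP libraries. AXL, a receptor kinase that marks PC3, had 0.0222 and 0.0237 CPM in the ETV4AAA libraries and 0.0205 and 0 CPM in the eGFP libraries, and it had 10.6 and 10.4 CPM in PC3 eGFP libraries.

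ETV4 itself (chromosome 17, 43527844 to 43579620, minus strand, GRCh38) had 390 and 281 CPM in ETV4AAA libraries, against 31.2 and 24.9 CPM in eGFP libraries. Both ETV4AAA libraries stood above both eGFP libraries, and the log2 change was 3.58 ± 0.37 (SE, edgeR, adjusted p = 1.52e-05). The counts do not separate the introduced from the resident ETV4 transcript. With ETV4WT the gene had 385 and 484 CPM, and the difference of ETV4AAA from ETV4WT was -0.37 ± 0.33 on the log2 scale (adjusted p = 0.471), so ETV4 RNA was not shown to differ between the constructs.

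Across all expressed genes the ETV4AAA and eGFP groups differed widely. Of 23238 genes tested, 4054 were higher with ETV4AAA (17.4%) and 3341 were lower (14.4%) at an adjusted p under 0.05 in edgeR's quasi-likelihood test. The median log2 change over all genes tested was -0.0012. The median log2 change was 1.5 among the higher genes and -0.95 among the lower ones, 1016 genes rose by over 3 on the log2 scale and 73 fell by over 3. Without the first ETV4AAA library, the count of lower genes was 2049. Against the same eGFP libraries, ETV4WT gave 348 called genes (1.5%). The direct test of ETV4AAA against ETV4WT gave 3219 higher (13.9%) and 2236 lower genes (9.62%), and 3437 in all instead of 5455 without the first ETV4AAA library. These comparisons share libraries, so only their own values are set side by side.

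**Figure D1:**
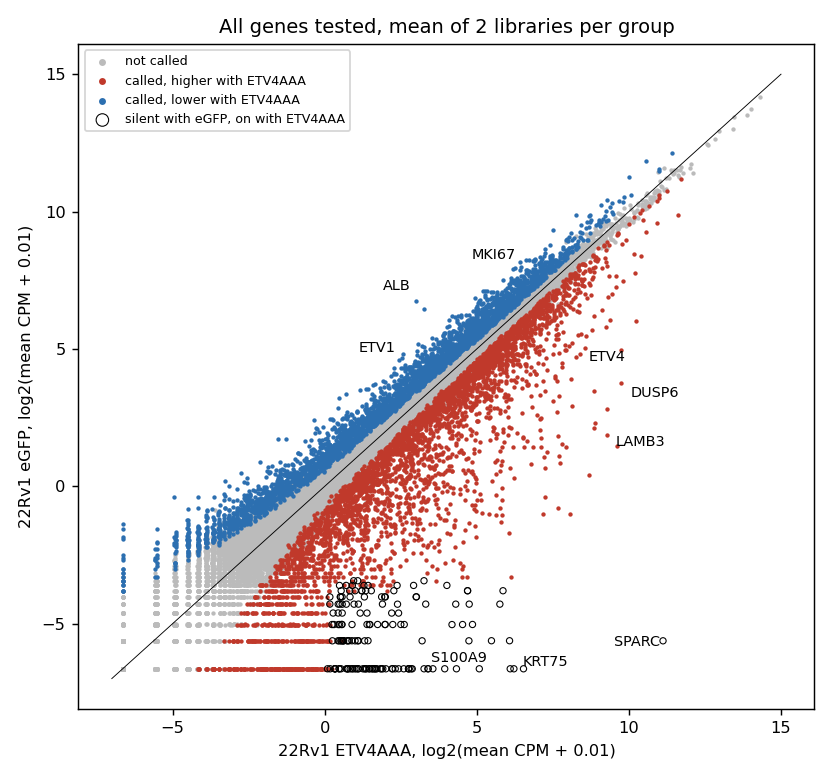
Each point is 1 of the 23238 genes tested in 22Rv1, with its mean level in the 2 ETV4AAA libraries on the x axis and in the 2 eGFP libraries on the y axis, both as log2(CPM + 0.01); red genes were called higher with ETV4AAA, blue genes lower, and open circles are genes silent with eGFP and on with ETV4AAA. The 4054 higher genes spread far to the right of the diagonal, with SPARC at the lower right, and the 3341 lower genes lie above it, 1535 of them by more than 1 on the log2 scale.

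The share of genes called went with the level in control cells. Among the 2489 tested genes under 0.1 CPM with eGFP, 31.6% were called higher and 0.482% lower. In this range a fall can hardly be seen. Such a gene passed the filter on low counts only through libraries other than eGFP, those with ETV4AAA among them. The filter thus favours rises in this class, also among members of the gene lists below. Among the 1796 genes at 100 CPM or more, 8.52% were called higher and 26.6% lower. The size of the changes also went with level: rises from under 0.1 CPM had a median log2 change of 4.80, while between 20 and 100 CPM the medians were 0.78 among rises and -0.70 among falls, and at 100 CPM or more 0.64 and -0.67. Of 15591 protein-coding genes tested, 20.7% were higher and 15% lower. Among 1820 antisense genes 8.08% were higher and 17.5% lower, and among 2042 processed pseudogenes 14.5% were higher and 4.16% lower. No source states the strand setting of the counting, so reads of an antisense gene and its partner cannot be told apart. Nor is it stated how reads that match both a pseudogene and its parent were counted, so these cannot be told apart either.

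**Figure D2:**
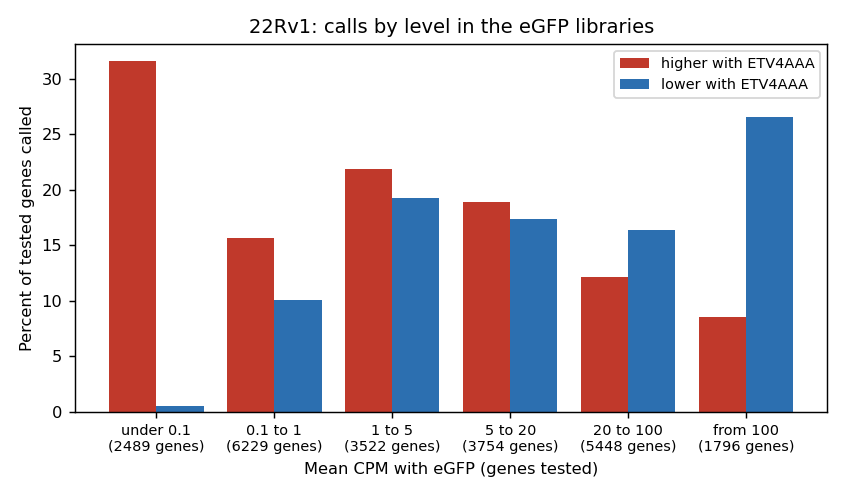
Bars give the percent of tested genes called higher (red) and lower (blue) with ETV4AAA in 22Rv1, by mean CPM in the eGFP libraries, with the number of genes in each class under the axis. Higher calls make up 31.6% of the lowest class and 8.52% of the highest, and lower calls 0.482% and 26.6%. Genes of the lowest class passed the filter on low counts only through libraries other than those of 22Rv1 with eGFP, which favours rises there.

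A set of genes was silent in control cells and on with ETV4AAA. Silent was set as under 0.1 CPM in each eGFP library and on as at least 1 CPM in each ETV4AAA library, so the levels that follow are a description. Of 34880 genes silent with eGFP, 151 were on with ETV4AAA (0.433%), and no gene went the other way, from at least 1 CPM in both eGFP libraries to under 0.1 CPM in both ETV4AAA libraries. The 151 comprised 124 protein-coding genes, 14 lincRNAs and 6 antisense genes, among others. Their median level with ETV4AAA was 2.54 CPM, 42 reached 5 CPM, 16 reached 20 CPM and 1 exceeded 100 CPM. In eGFP libraries 56 of them had no count at all and 49 had 1 to 3 counts. With ETV4WT, which the choice did not use, 2 of the 151 were at 1 CPM or more in both libraries, 82 were under 0.1 CPM in both and 67 lay between.

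The highest of the silent genes was SPARC, a secreted matricellular protein of connective tissue and bone (chromosome 5, 151661096 to 151687165, minus strand). SPARC had 2230 and 2225 CPM in ETV4AAA libraries, against 0.0205 and 0 CPM in eGFP libraries. That is 194293 counts against 1, a pooled ratio of 216840 with a 95% interval of 38918 to 8564760. Intervals and floors of this kind cover counting error only, since no molecular identifiers are described. In ETV4WT libraries SPARC had 69.9 and 65.2 CPM, and in PC3 eGFP libraries it had 70.1 and 68.8 CPM. SPARC and ANO3, a membrane scramblase with 52.7 and 55.5 CPM in ETV4AAA libraries, against 0.041 and 0.0412 CPM in eGFP libraries, were the pair that also passed 1 CPM in both ETV4WT libraries. For ANO3 the ETV4WT libraries had 1.33 and 1.45 CPM.

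MYL10, a myosin light chain, had 92.3 and 93.0 CPM in ETV4AAA libraries and 0 counts in both eGFP libraries, at least 3007-fold higher, with the eGFP group set at a floor of 3 counts in all. KRT75, a keratin of hair follicles, had 78.1 and 70.9 CPM in ETV4AAA libraries and 0 counts in both eGFP libraries, at least 2420-fold higher. The calprotectin subunit S100A9 had 70.4 and 66.5 CPM in ETV4AAA libraries and 0 counts in both eGFP libraries, at least 2224-fold higher. All these genes were at 0.457 CPM or less in each ETV4WT library, so the ETV4AAA libraries stood alone among those of 22Rv1. KRT75 was at 130 and 136 CPM in PC3 eGFP libraries.

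APLNR, the receptor for the peptide apelin, had 71.1 and 63.8 CPM in ETV4AAA libraries, against 0 and 0.0206 CPM in eGFP libraries. The next in order of level were TGM5, a transglutaminase of the epidermis, and ANO3, followed by HAPLN1, which links hyaluronan to proteoglycans. PAEP, a lipocalin of the secretory endometrium, had 32.7 and 35 CPM in ETV4AAA libraries and 0 counts in both eGFP and both ETV4WT libraries. GABRR1 (a GABA receptor subunit), the gel-forming mucins MUC2 and MUC5B, CLEC7A (a fungal glucan receptor of myeloid cells), ADAMTS5 (an aggrecan-cleaving protease) and ARHGDIB (a GDP dissociation inhibitor) completed the 15 highest, and all of these had mean levels over 20 CPM in the ETV4AAA libraries.

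**Figure D3:**
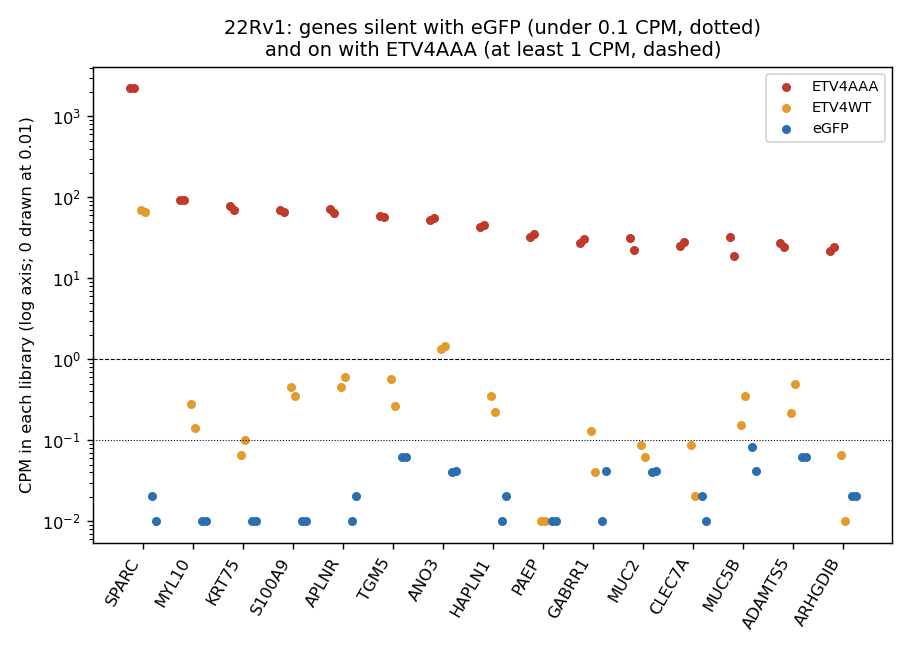
Points give the CPM in each 22Rv1 library, on a log axis, of the 15 genes with the highest mean level among the 151 that were silent with eGFP and on with ETV4AAA; 0 is drawn at 0.01, and dotted and dashed lines mark 0.1 and 1 CPM. For each gene both ETV4AAA points lie above all ETV4WT and eGFP points, and SPARC and ANO3 alone have ETV4WT points above 1 CPM.

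Some silent genes that came on lie near each other. With 100 kb as the limit, 25 of the 151 (16.6%) had another of the set as a neighbour. These were singled out after their values were seen. The share among other genes was not counted, so the 16.6% is a description and does not show clustering. S100A9 and S100A8, the 2 subunits of calprotectin, lie on chromosome 1, and S100A8 had 2.55 and 2.61 CPM in ETV4AAA libraries and 0 counts in both eGFP libraries. On chromosome 12 the lectin receptor genes CLEC12B, CLEC1A and CLEC7A lie within 100 kb of each other. So do the leukocyte receptor genes LILRA2 and LILRB1 on chromosome 19, and THBD and CD93 on chromosome 20. Genes that did not come on may lie between them. SPARC overlaps the antisense gene CLMAT3, and KIRREL3 overlaps the antisense gene KIRREL3-AS1. Reads of a gene and its antisense gene cannot be told apart. Several of the genes with a neighbour are known from myeloid or endothelial cells. Markers of leukocytes were low in sum. Of 15 listed, 6 passed the filter on low counts, and 1 of the 6 was called, higher with ETV4AAA. The summed level of the 6 was 8.83 to 9.81 CPM in ETV4AAA libraries and 2.35 to 2.61 CPM in eGFP libraries. Among the markers not called, CD3D, MS4A1 and TYROBP were at 0 in all 4 libraries. PTPRC, the pan-leukocyte marker CD45, had 0 and 0.0237 CPM in ETV4AAA libraries and 0.041 and 0 CPM in eGFP libraries.

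Markers of stromal and endothelial cells moved more. Of 14 listed, 12 were tested, 6 were higher and 1 was lower, and their sum was 97.1 and 110 CPM in ETV4AAA libraries, against 15.3 and 14.7 CPM in eGFP libraries. RGS5, a pericyte regulator of G protein signalling, made up most of it, with 74.2 and 87.3 CPM in ETV4AAA libraries, against 3.57 and 4.16 CPM in eGFP libraries. KDR, a VEGF receptor, had 4.41 and 4.82 CPM in ETV4AAA libraries and 0 counts in both eGFP and both ETV4WT libraries. PECAM1, an adhesion molecule of endothelium and platelets, had 0.666 and 0.712 CPM in ETV4AAA libraries and 0 counts in both eGFP libraries. ACTA2, smooth muscle actin, had 4.64 and 6.34 CPM in ETV4AAA libraries, against 1.95 and 1.94 CPM in eGFP libraries. COL1A2 was higher too, and the sixth marker stayed under 1 CPM. From outside the list, the endothelial gene CD93 had 5.86 and 4.89 CPM in ETV4AAA libraries and 0 counts in both eGFP libraries, a call lost in DESeq2's Wald test (adjusted p = 0.127). Both markers that did not pass the filter on low counts were near 0: CDH5, the cadherin of endothelium, had 0.0444 and 0.0237 CPM in ETV4AAA libraries and 0 counts in both eGFP libraries, and VWF had 0 and 0.0949 CPM in ETV4AAA libraries, against 0.041 and 0.0206 CPM in eGFP libraries. In sorted bulk cells, more cells with a transcript and more transcript per cell cannot be told apart. The part of such cells in the matrix and angiogenic genes below was not tested.

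The promoters of these genes were read from RefSeq (GRCh38.p14), as the 250 bases before the transcription start of the first entry per gene. Other starts were not read, and the start used in these cells is not known. For GABRR1, ARHGDIB and ANO3 the window does not lie at the gene's start in GENCODE 29, the source of gene positions. For SPARC the window is the first 250 bases inside the gene by GENCODE 29, not the bases before its start there. Of the 15 highest silent genes, 10 have a window used here, and 6 of those hold the PEA3 site AGGAAG on either strand. Shown are the highest silent gene with a window, 4 of these 6, chosen because they hold the motif, and DUSP6, the ERK phosphatase gene described below. Capitals mark AGGAAG or its complement CTTCCT and the AP-1 site TGANTCA. The windows shown are those of SPARC, which holds neither motif (chr5:151686916-151687165, minus strand), S100A9 (chr1:153357604-153357853, plus strand), PAEP (chr9:135561506-135561755, plus strand), GABRR1 (chr6:89217778-89218027, minus strand), MUC2 (chr11:1074624-1074873, plus strand) and, from outside the silent set, DUSP6 (chr12:89352502-89352751, minus strand).
SPARC: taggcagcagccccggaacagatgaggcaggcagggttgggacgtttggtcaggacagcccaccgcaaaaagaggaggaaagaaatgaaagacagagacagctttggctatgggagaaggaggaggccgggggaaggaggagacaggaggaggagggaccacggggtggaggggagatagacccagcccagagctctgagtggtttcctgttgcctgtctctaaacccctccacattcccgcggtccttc
S100A9: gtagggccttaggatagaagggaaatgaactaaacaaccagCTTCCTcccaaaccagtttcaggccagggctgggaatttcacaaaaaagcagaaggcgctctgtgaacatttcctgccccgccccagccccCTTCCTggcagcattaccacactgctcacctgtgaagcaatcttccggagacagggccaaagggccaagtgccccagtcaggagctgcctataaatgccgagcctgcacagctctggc
PAEP: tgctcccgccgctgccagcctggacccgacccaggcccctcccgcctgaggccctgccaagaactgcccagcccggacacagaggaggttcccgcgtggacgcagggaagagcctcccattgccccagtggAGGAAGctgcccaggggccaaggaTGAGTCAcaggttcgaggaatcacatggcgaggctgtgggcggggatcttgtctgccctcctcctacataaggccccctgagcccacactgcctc
GABRR1: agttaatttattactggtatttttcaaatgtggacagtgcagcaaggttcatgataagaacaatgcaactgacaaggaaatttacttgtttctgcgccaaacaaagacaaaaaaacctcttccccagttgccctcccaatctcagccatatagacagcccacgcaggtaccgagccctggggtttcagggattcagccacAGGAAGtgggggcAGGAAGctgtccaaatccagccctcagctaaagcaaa
MUC2: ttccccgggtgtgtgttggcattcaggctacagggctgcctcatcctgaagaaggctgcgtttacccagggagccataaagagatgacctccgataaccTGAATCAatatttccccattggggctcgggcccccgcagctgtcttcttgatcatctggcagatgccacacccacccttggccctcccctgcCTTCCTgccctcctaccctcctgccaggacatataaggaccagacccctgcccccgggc
DUSP6: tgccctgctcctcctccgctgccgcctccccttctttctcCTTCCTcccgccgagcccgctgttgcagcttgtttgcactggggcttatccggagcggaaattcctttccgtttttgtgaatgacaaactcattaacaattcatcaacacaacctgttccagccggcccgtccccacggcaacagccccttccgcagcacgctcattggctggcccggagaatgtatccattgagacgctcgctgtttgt
The 2 PEA3 sites of S100A9 start at -209 and -118 and those of GABRR1 at -50 and -37, counted from the start of the entry used. PAEP and MUC2 hold 1 PEA3 site each, at -119 and -59, and 1 AP-1 site each. ANO3 and ARHGDIB hold 1 PEA3 site each.

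Over the whole set, 47 of the 100 silent genes with an entry hold AGGAAG (47%), against 28.0% of 13934 tested genes and 28.7% of all 27305 windows. The share was 38.7% of 662 genes that rose by over 3 on the log2 scale, 32.0% of 2709 called higher and 27.9% of 2069 called lower. The longer ETS consensus CCGGAAGT was in none of the 100, in 1 of the 662, in 5.03% of the lower genes and in 5.94% of tested genes. TGANTCA was in 8 of the 100, in 6.46% of the higher genes, in 3% of the lower genes and in 4.56% of tested genes. The windows of the silent genes held 54.2% G and C, against 62.9% for all tested genes, and its part in these shares was not tested. A match describes the letters in the window and is not evidence that a factor is bound there.

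The other 2 PEA3 genes fell. ETV1 had 5.12 and 5.62 CPM in ETV4AAA libraries, against 23.4 and 24.7 CPM in eGFP libraries (log2 change -2.16 ± 0.14, adjusted p = 2.85e-07). ETV5 had 2.66 and 3.30 CPM in ETV4AAA libraries, against 12.6 and 13.1 CPM in eGFP libraries (-2.11 ± 0.14, adjusted p = 3.27e-07). The ETV4WT libraries lay between, at 11.2 and 11.9 CPM for ETV1 and at 5.77 and 5.06 CPM for ETV5. Among 23 other ETS factors tested, 6 were higher and 6 were lower, with a median log2 change of 0, and 3 were lower without the second eGFP library. With all libraries the ETS shares were 26.1% higher and 26.1% lower, against 17.4% and 14.4% of all genes tested. Of 10 genes for COP1 ligase parts and partners, the adaptor TRIB2 rose, with 4.24 and 3.70 CPM in ETV4AAA libraries, against 0.0821 and 0.0206 CPM in eGFP libraries, and the adaptor TRIB1 and the scaffold CUL4B fell. CUL4B (log2 change -0.43 ± 0.14) lost its call without either ETV4AAA library and without the second eGFP library, at adjusted p from 0.0757 to 0.0872, and also with no filter on low counts (0.0565) and with DESeq2's Wald test (0.0722). With DESeq2's size factors 2 of the 10 were higher.

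Feedback regulators of ERK signalling rose strongly. Of 20 PEA3 and ERK feedback genes tested, which include ETV4 itself, 14 were higher and 4 were lower, and the median log2 change was 2.80. DUSP6, a phosphatase that inactivates ERK, had 848 and 873 CPM in ETV4AAA libraries, against 12.7 and 14.4 CPM in eGFP libraries (log2 change 5.99 ± 0.14, adjusted p = 4.15e-10). SPRY4, a Sprouty inhibitor of receptor tyrosine kinase signalling, had 493 and 422 CPM in ETV4AAA libraries, against 11.9 and 10.3 CPM in eGFP libraries (5.36 ± 0.16). The dual-specificity phosphatase DUSP4 had 298 and 262 CPM in ETV4AAA libraries, against 7.45 and 7.60 CPM in eGFP libraries. In each case both ETV4AAA libraries lay far above both eGFP libraries, and the ETV4WT libraries stood between, at 37.4 and 38.2 CPM for DUSP6. SPRY1, PHLDA1, EPHA2 and IER3 were higher too. CCND1, cyclin D1, fell, with 1123 and 1021 CPM in ETV4AAA libraries, against 1547 and 1526 CPM in eGFP libraries (-0.52 ± 0.11). Against ETV4WT, 13 of the 20 were higher and 4 were lower.

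Some ligands of the EGF receptor family rose, and the receptors did not pass the test. Of 13 ligand and receptor genes tested, 5 were higher and none was lower, with a median log2 change of 0.56. AREG, amphiregulin, had 20.1 and 23.4 CPM in ETV4AAA libraries, against 0.615 and 1.21 CPM in eGFP libraries (log2 change 4.57 ± 0.30). TGFA had 16.3 and 17.1 CPM in ETV4AAA libraries, against 1.95 and 2.18 CPM in eGFP libraries (3.02 ± 0.16). EPGN, EGF and NRG2 were the other called genes. NRG2 was at 0.288 and 0.0712 CPM in ETV4AAA libraries, and its call was lost without the first ETV4AAA library (adjusted p = 0.349), the first eGFP library (0.0936) and the second eGFP library (0.192), and with limma-voom (0.0719). The receptor gene ERBB3 had 315 and 284 CPM in ETV4AAA libraries and 309 and 311 CPM in eGFP libraries (-0.05 ± 0.13, adjusted p = 0.827), and ERBB2 differed by -0.14 ± 0.28. Of 32 other receptor tyrosine kinases 12 were higher and 5 were lower. FGFR1 had 215 and 181 CPM in ETV4AAA libraries, against 16.4 and 12.4 CPM in eGFP libraries (3.78 ± 0.22), while MET, the receptor of hepatocyte growth factor, fell to 3.70 and 3.30 CPM, against 11.1 and 12.9 CPM in eGFP libraries (-1.78 ± 0.16).

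Genes reported elsewhere as PEA3 targets were higher or did not pass the test. Of 23 tested, 16 were higher and none was lower, with a median log2 change of 2.42, or 1.54 with genes at 0 counts in control cells set at their bound. TWIST1, a mesenchymal transcription factor, had 212 and 207 CPM in ETV4AAA libraries, against 10.1 and 9.33 CPM in eGFP libraries (log2 change 4.43 ± 0.14). PTGS2, cyclooxygenase 2, had 29.7 and 30.7 CPM in ETV4AAA libraries, against 0.944 and 0.803 CPM in eGFP libraries (5.11 ± 0.25). The proteases of the list were called at low levels: MMP2 had 1.20 and 0.925 CPM in ETV4AAA libraries, against 0.041 and 0.0412 CPM in eGFP libraries, and MMP7 had 1.20 and 1.31 CPM in ETV4AAA libraries and 0 counts in both eGFP libraries. BAX, a cell death effector, missed the threshold (0.71 ± 0.31, adjusted p = 0.107). It passed with a replicate block (0.0295), with no filter on low counts (0.000152) and in fits of the 6 libraries of 22Rv1 (0.00199) or the 4 compared (0.00976).

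Adhesion and matrix genes rose broadly. Of 25 integrin and laminin genes tested, 19 were higher and none was lower, with a median log2 change of 1.19. LAMB3, a chain of the laminin of epithelial basement membranes, had 700 and 538 CPM in ETV4AAA libraries, against 4.57 and 2.72 CPM in eGFP libraries (7.41 ± 0.36, adjusted p = 2.75e-08). LAMA3, another laminin chain, did not pass the test, with 3.22 and 2.25 CPM in ETV4AAA libraries and 3.34 and 3.13 CPM in eGFP libraries. ITGA6, the integrin subunit that binds laminins, had 92.5 and 88.9 CPM in ETV4AAA libraries, against 3.14 and 3.64 CPM in eGFP libraries (4.74 ± 0.16). LAMA4 and ITGA10 were higher as well. For LAMB3 the ETV4WT libraries had 9.32 and 10.7 CPM, and ETV4AAA against ETV4WT gave 19 higher and none lower on this list.

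Collagens and matricellular genes were higher in 16 of 28 cases and lower in 3, with a median log2 change of 1.23. SPARC and FN1 led. FN1, fibronectin, had 329 and 287 CPM in ETV4AAA libraries, against 26.5 and 25.3 CPM in eGFP libraries (3.57 ± 0.14). COL6A3, COL12A1 and COL16A1 were higher at levels under 10 CPM, and COL1A1, the main fibrillar collagen chain, did not pass the test (0.72 ± 0.38, adjusted p = 0.175). Of 29 mesenchymal genes 14 were higher and 2 were lower. TGFBI, a TGF-beta-induced matrix protein, had 269 and 264 CPM in ETV4AAA libraries, against 0.615 and 0.371 CPM in eGFP libraries (9.07 ± 0.33). FBN1, fibrillin, had 48.9 and 40.6 CPM in ETV4AAA libraries, against 1.17 and 1.11 CPM in eGFP libraries (5.29 ± 0.18). VIM, vimentin, rose less, with 11.6 and 12.5 CPM in ETV4AAA libraries, against 6.24 and 7.23 CPM in eGFP libraries (0.84 ± 0.13).

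Epithelial junction genes went both ways, with 8 of 30 higher and 6 lower. These shares were 26.7% and 20%, against 17.4% and 14.4% of all genes tested. CLDN1, a tight junction claudin, had 74.4 and 75.5 CPM in ETV4AAA libraries, against 0.985 and 1.48 CPM in eGFP libraries (log2 change 5.92 ± 0.23). CDH1, E-cadherin, did not pass the test, with 341 and 315 CPM in ETV4AAA libraries and 344 and 345 CPM in eGFP libraries (-0.07 ± 0.11, adjusted p = 0.689). The desmosomal gene DSC2 rose and PKP1 fell. The count of lower genes was 2 without the second ETV4AAA library and 3 without either eGFP library.

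Basal genes of the prostate rose in a line with luminal markers. Of 17 tested, 13 were higher and 1 was lower, and the median log2 change was 2.69, or 2.61 with genes at 0 counts in control cells set at their bound. NGFR, a neurotrophin receptor of basal cells, had 54.2 and 44.2 CPM in ETV4AAA libraries, against 0.615 and 0.329 CPM in eGFP libraries (6.69 ± 0.36). KRT15, a basal keratin, had 13.6 and 14.1 CPM in ETV4AAA libraries, against 0.533 and 0.350 CPM in eGFP libraries (4.96 ± 0.29). CD44 had 430 and 427 CPM in ETV4AAA libraries, against 120 and 129 CPM in eGFP libraries (1.79 ± 0.12), and the lower gene was BCL2. S100 genes, which encode calcium-binding proteins, were higher in 12 of 14 cases and lower in none. Of 19 listed, 14 passed the filter on low counts. In 3 of the 14 both eGFP libraries had 0 counts, so these could only be called higher. Among the higher genes was S100A6, with 237 and 236 CPM in ETV4AAA libraries, against 36.7 and 34.4 CPM in eGFP libraries. Of 11 squamous genes 5 were higher and 1 was lower, and KRT80 had 59.2 and 52.7 CPM in ETV4AAA libraries, against 0.308 and 0.494 CPM in eGFP libraries (7.12 ± 0.30). The squamous count was 2 without the second ETV4AAA library and 3 without any of the other libraries, and 2 were lower with upper-quartile factors.

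**Figure D4:**
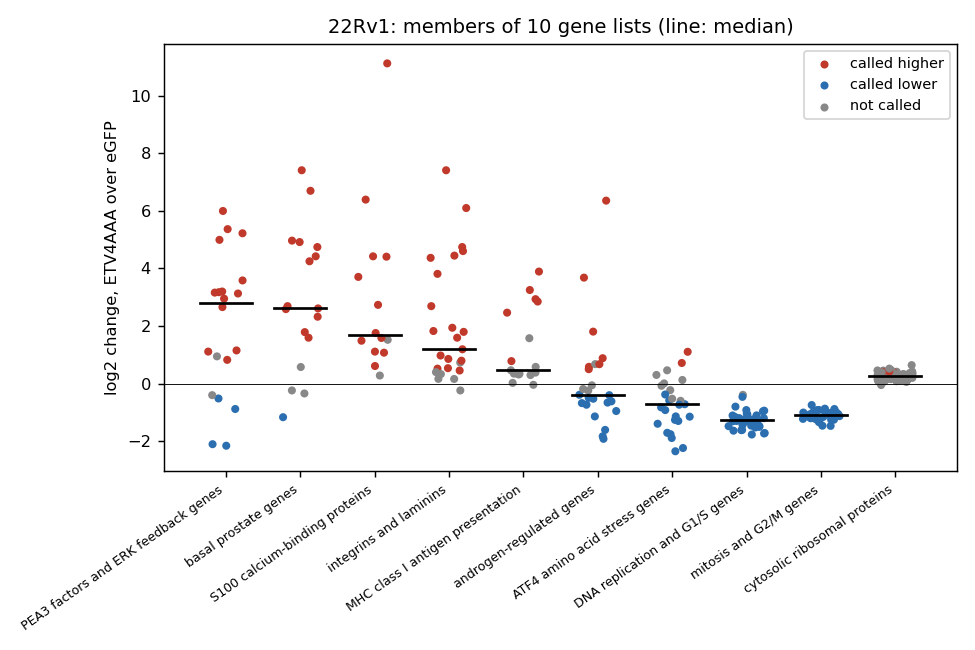
Points give the log2 change, ETV4AAA over eGFP in 22Rv1, of each tested member of 10 gene lists, red where called higher, blue where called lower and grey where not called, with a black line at the median; genes at 0 counts with eGFP are drawn at their lower bound. Medians run from 2.80 for the PEA3 and ERK feedback list to -1.26 for the replication list, and the ribosomal protein genes cluster at 0.26.

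Secreted and proteolytic genes were mostly higher. Of 11 plasminogen activation genes 8 were higher and 1 was lower, and of 18 matrix metalloproteinase and TIMP genes 12 were higher and none was lower. SERPINE2, an inhibitor of thrombin and urokinase, had 137 and 141 CPM in ETV4AAA libraries, against 4.94 and 6.22 CPM in eGFP libraries (log2 change 4.64 ± 0.15). TIMP3, an inhibitor of metalloproteinases, had 16.3 and 15.6 CPM in ETV4AAA libraries, against 0.656 and 0.453 CPM in eGFP libraries (4.84 ± 0.21). PLAU, the gene for urokinase, reached 1.24 and 1.73 CPM in ETV4AAA libraries, against 0 and 0.0206 CPM in eGFP libraries. Of 12 genes of the IGF system 7 were higher and 2 were lower. IGFBP3, an insulin-like growth factor binding protein, had 394 and 381 CPM in ETV4AAA libraries, against 44.6 and 44.3 CPM in eGFP libraries (3.12 ± 0.12). IGFBP7, IGFBP5, IGFBP4 and IGFBP6 were higher too, and IGFBP2 did not pass the test (0.04 ± 0.28). The lower genes were the receptors IGF1R (-0.89) and INSR (-0.43), named after their values were seen.

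Angiogenic genes were called higher in 6 of 15 cases and lower in none, with a median log2 change of 0.13, or 0.16 with genes at 0 counts in control cells set at their bound. APLN, the apelin gene, had 1413 and 1303 CPM in ETV4AAA libraries, against 357 and 308 CPM in eGFP libraries (log2 change 2.03 ± 0.18). The gene for its receptor, APLNR, is the silent gene described above. NRP2, a co-receptor for VEGF and semaphorins, had 26.8 and 22.5 CPM in ETV4AAA libraries, against 0.308 and 0.329 CPM in eGFP libraries (6.26 ± 0.30). ADM, adrenomedullin, and NRP1 were higher as well.

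Genes of DNA replication and mitosis fell almost without exception. Of 37 replication and G1/S genes tested, 36 were lower and none was higher, with a median log2 change of -1.26, and the exception was CCNE1, cyclin E1 (-0.39 ± 0.17, adjusted p = 0.107), which passed without the second ETV4AAA library (adjusted p = 0.045). All 34 mitosis and G2/M genes tested were lower, with a median of -1.08. RRM2, the ribonucleotide reductase subunit, had 35.8 and 40.6 CPM in ETV4AAA libraries, against 119 and 133 CPM in eGFP libraries (-1.72 ± 0.13, adjusted p = 8.08e-07). MCM4, of the replicative helicase, had 120 and 122 CPM in ETV4AAA libraries, against 306 and 306 CPM in eGFP libraries (-1.34 ± 0.10). MKI67, the proliferation marker Ki-67, had 92.3 and 78.2 CPM in ETV4AAA libraries, against 234 and 239 CPM in eGFP libraries (-1.47 ± 0.16). Both ETV4AAA libraries were below both eGFP libraries for all 37 and all 34 genes, where 33% of all tested genes were so placed. Against ETV4WT 34 of 37 and 34 of 34 were lower, and in ETV4WT against eGFP no gene of either list was called.

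Genes of p53 and cell cycle arrest were higher in part. Of 30 p53 targets 16 were higher and none was lower, with a median log2 change of 0.64. PLK2, a kinase induced by stress, had 248 and 245 CPM in ETV4AAA libraries, against 2.34 and 3.05 CPM in eGFP libraries (6.52 ± 0.18, adjusted p = 5.17e-10). GDF15, a stress-induced cytokine, had 324 and 222 CPM in ETV4AAA libraries, against 18.4 and 11.5 CPM in eGFP libraries (4.19 ± 0.35). CDKN1A, the CDK inhibitor p21, had 178 and 172 CPM in ETV4AAA libraries, against 68.6 and 59.5 CPM in eGFP libraries (1.45 ± 0.16). The ETV4WT libraries were higher still for CDKN1A, at 242 and 241 CPM, and the difference of ETV4AAA from ETV4WT was -0.47 (adjusted p = 0.0472). CDKN2B, the CDK inhibitor p15, had 12.2 and 11.3 CPM in ETV4AAA libraries, against 2.65 and 2.45 CPM in eGFP libraries (2.20 ± 0.14), while CDKN2C and CDKN2D fell.

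Of 21 genes for the senescence-associated secretory phenotype 13 were higher and none was lower, with a median log2 change of 2.42, or 1.95 with genes at 0 counts in control cells set at their bound. Besides the IGF binding proteins and GDF15 they include CXCL8, interleukin 8, at 0.399 and 0.261 CPM in ETV4AAA libraries and 0 counts in both eGFP libraries.

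Androgen-regulated genes were divided. Of 24 tested, 13 were lower and 7 were higher, with a median log2 change of -0.40. SLC45A3, prostein, had 32.0 and 29.3 CPM in ETV4AAA libraries, against 127 and 105 CPM in eGFP libraries (-1.92 ± 0.17). STEAP2, a metalloreductase, fell as well. In the other direction STEAP4 had 55.6 and 57.3 CPM in ETV4AAA libraries, against 0.492 and 0.885 CPM in eGFP libraries (6.35 ± 0.27), and the kinase gene SGK1 had 28.5 and 31.3 CPM in ETV4AAA libraries, against 2.01 and 2.66 CPM in eGFP libraries (3.68 ± 0.18). TMPRSS2 did not pass the test (-0.19 ± 0.11, adjusted p = 0.23). Without the second ETV4AAA library 8 of the 24 were lower.

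Other luminal genes were called in both directions, 5 of 21 higher and 6 lower, with 3 higher without the first ETV4AAA library and without the second eGFP library. With all 4 libraries the shares were 23.8% and 28.6%, against 17.4% and 14.4% of all genes tested. HOXB13, the prostate homeobox factor, had 865 and 746 CPM in ETV4AAA libraries and 715 and 598 CPM in eGFP libraries (0.30 ± 0.17, adjusted p = 0.228), and KRT8 differed by 0.49 ± 0.27 (adjusted p = 0.191). Hepatic and gut genes, of which 22Rv1 expresses several, were lower in 8 of 18 cases and higher in 3, and lower in 4 without the first ETV4AAA library. ALB, albumin, had 6.92 and 9.11 CPM in ETV4AAA libraries, against 95.4 and 116 CPM in eGFP libraries (-3.72 ± 0.25, adjusted p = 3.98e-07), the largest fall among called genes of at least 5 CPM. The cadherin gene CDH17 fell by 1.61, while MUC13, a membrane mucin of the gut, had 581 and 635 CPM in ETV4AAA libraries, against 50.9 and 59.6 CPM in eGFP libraries (3.46 ± 0.13). Next in size among the falls were DHRS2, a dehydrogenase, with 9.92 and 9.06 CPM in ETV4AAA libraries, against 91.9 and 82.2 CPM in eGFP libraries, and CDH6, a cadherin, with 1.13 and 1.59 CPM in ETV4AAA libraries, against 8.49 and 10.2 CPM in eGFP libraries.

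Neuroendocrine genes were called higher in 6 of 16 cases and lower in 4. SCG3, a granin of secretory granules, had 627 and 705 CPM in ETV4AAA libraries, against 60.8 and 73.4 CPM in eGFP libraries (log2 change 3.31 ± 0.15). CHGB, chromogranin B, had 213 and 206 CPM in ETV4AAA libraries, against 27.5 and 29.9 CPM in eGFP libraries (2.87 ± 0.17). DDC, which makes dopamine and serotonin, fell to 8.21 and 8.68 CPM, against 36.4 and 35.2 CPM in eGFP libraries (-2.08 ± 0.17), and SYP, synaptophysin, had 124 and 116 CPM in ETV4AAA libraries and 124 and 117 CPM in eGFP libraries.

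Many genes of amino acid supply fell, and some of lipid synthesis. Of 26 genes of the amino acid stress programme driven by ATF4, 16 were lower and 2 were higher, with a median log2 change of -0.73. PSAT1, of serine synthesis, had 67.1 and 78.6 CPM in ETV4AAA libraries, against 223 and 254 CPM in eGFP libraries (-1.71 ± 0.13). SLC7A5, a transporter of large neutral amino acids, had 1700 and 1339 CPM in ETV4AAA libraries, against 4245 and 3045 CPM in eGFP libraries (-1.26 ± 0.28, adjusted p = 0.00441). SLC7A5 lost its call without the second ETV4AAA library (adjusted p = 0.0624) and without the first eGFP library (0.0531). SHMT2, a mitochondrial enzyme of serine and glycine metabolism, did not pass the test, with 1450 and 1310 CPM in ETV4AAA libraries and 1511 and 1240 CPM in eGFP libraries. Of 32 sterol and fatty acid synthesis genes 10 were lower (31.25%) and 1 was higher. In a fit of the 4 libraries alone 16 were lower. The list summed to 9713 and 9379 CPM in eGFP libraries. Over all genes tested 14.4% were lower, and among those at 100 CPM or more 26.6%, so the share of the list was not far above that of abundant genes. SCD, a fatty acid desaturase, had 1046 and 1015 CPM in ETV4AAA libraries, against 2384 and 2542 CPM in eGFP libraries (-1.26 ± 0.11), and the higher gene was ACSS2, acetyl-CoA synthetase (1.37 ± 0.13). For the ATF4 list ETV4WT against eGFP gave 9 lower and none higher, and ETV4AAA against ETV4WT gave 4 higher and 7 lower.

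Other stress programmes went up in part. Of 32 hypoxia and glycolysis genes 14 were higher and 1 was lower, and EGLN3, an oxygen sensor, had 19.8 and 16.5 CPM in ETV4AAA libraries, against 5.25 and 5 CPM in eGFP libraries (log2 change 1.82 ± 0.16). GAPDH did not pass the test (0.11 ± 0.19). Of 22 genes of the unfolded protein response 8 were higher and none was lower, among them HSPA5, the chaperone BiP (0.47 ± 0.11), and 5 without the first eGFP library. Of 20 heat shock chaperones 10 were higher and 1 was lower. The higher ones, which include BAG3 (0.98 ± 0.16), numbered 5 without the second ETV4AAA library and 6 without the first eGFP library. Genes for aldehyde and oxidant detoxification were split, with 7 of 23 higher and 9 lower, and 4 and 5 lower without the first ETV4AAA and the second eGFP library.

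Genes of antigen presentation by MHC class I were higher in 6 of 17 cases and lower in none, and higher in 10 with no filter on low counts. HLA-B had 69.7 and 62.5 CPM in ETV4AAA libraries, against 4.64 and 4.28 CPM in eGFP libraries (log2 change 3.89 ± 0.25, adjusted p = 2.26e-07). HLA-C had 284 and 242 CPM in ETV4AAA libraries, against 38.5 and 30.6 CPM in eGFP libraries (2.93 ± 0.20). HLA-E and the immunoproteasome gene PSMB8 were higher too. These HLA genes are close copies of each other, and reads could be split between them. Interferon response genes, some of which control MHC class I, were called higher in 9 of 29 cases and lower in 4. OAS3, an antiviral enzyme, fell (-1.71 ± 0.18). Of 17 NF-kB genes 7 were higher and 1 was lower, and TNFAIP3, a brake on NF-kB, had 13.8 and 12.6 CPM in ETV4AAA libraries, against 0.472 and 0.474 CPM in eGFP libraries (4.80 ± 0.21).

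Developmental signalling genes differed from list to list. Of 28 TGF-beta and BMP genes 14 were higher and 2 were lower, with a median log2 change of 0.78, or 0.68 with genes at 0 counts in control cells set at their bound. BMP4, a bone morphogenetic protein, had 26.2 and 22.1 CPM in ETV4AAA libraries, against 0.964 and 1.03 CPM in eGFP libraries (4.60 ± 0.19). Of 31 Wnt genes 8 were higher and 6 were lower (25.8% and 19.4%, against 17.4% and 14.4% of all genes tested). The ligand WNT5B had 74.3 and 58.2 CPM in ETV4AAA libraries, against 0.328 and 0.268 CPM in eGFP libraries (7.78 ± 0.37), and its pathway's receptor FZD5 fell (-1.43 ± 0.17). Of 21 Notch genes 10 were higher and 3 were lower, and the target HES1 had 232 and 224 CPM in ETV4AAA libraries, against 49.1 and 49.6 CPM in eGFP libraries (2.21 ± 0.11). Of 35 HOX genes 10 were higher and 10 were lower (28.6% and 28.6%), with a median of -0.19. HOXB9 had 109 and 110 CPM in ETV4AAA libraries, against 9.31 and 10.1 CPM in eGFP libraries (3.49 ± 0.15), and HOXA10 fell (-1.47 ± 0.17).

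Of 30 genes of neuronal guidance and adhesion, 13 were higher and 2 were lower, and SEMA3D, a secreted semaphorin, had 35.6 and 34.6 CPM in ETV4AAA libraries, against 0.697 and 0.679 CPM in eGFP libraries (log2 change 5.67 ± 0.21). Immediate early genes were divided, with 9 of 21 higher and 6 lower. EGR1, a zinc finger factor induced by ERK, fell to 41.1 and 36.8 CPM in ETV4AAA libraries, against 146 and 132 CPM in eGFP libraries (-1.84 ± 0.15), while IER5 rose to 168 and 123 CPM in ETV4AAA libraries, against 24.1 and 19.2 CPM in eGFP libraries (2.75 ± 0.17). Of 17 genes of the BCL2 family 7 were higher and 1 was lower, and BCL2L1, which encodes BCL-XL, had 170 and 155 CPM in ETV4AAA libraries, against 50.9 and 44.1 CPM in eGFP libraries (1.77 ± 0.18).

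**Figure D5:**
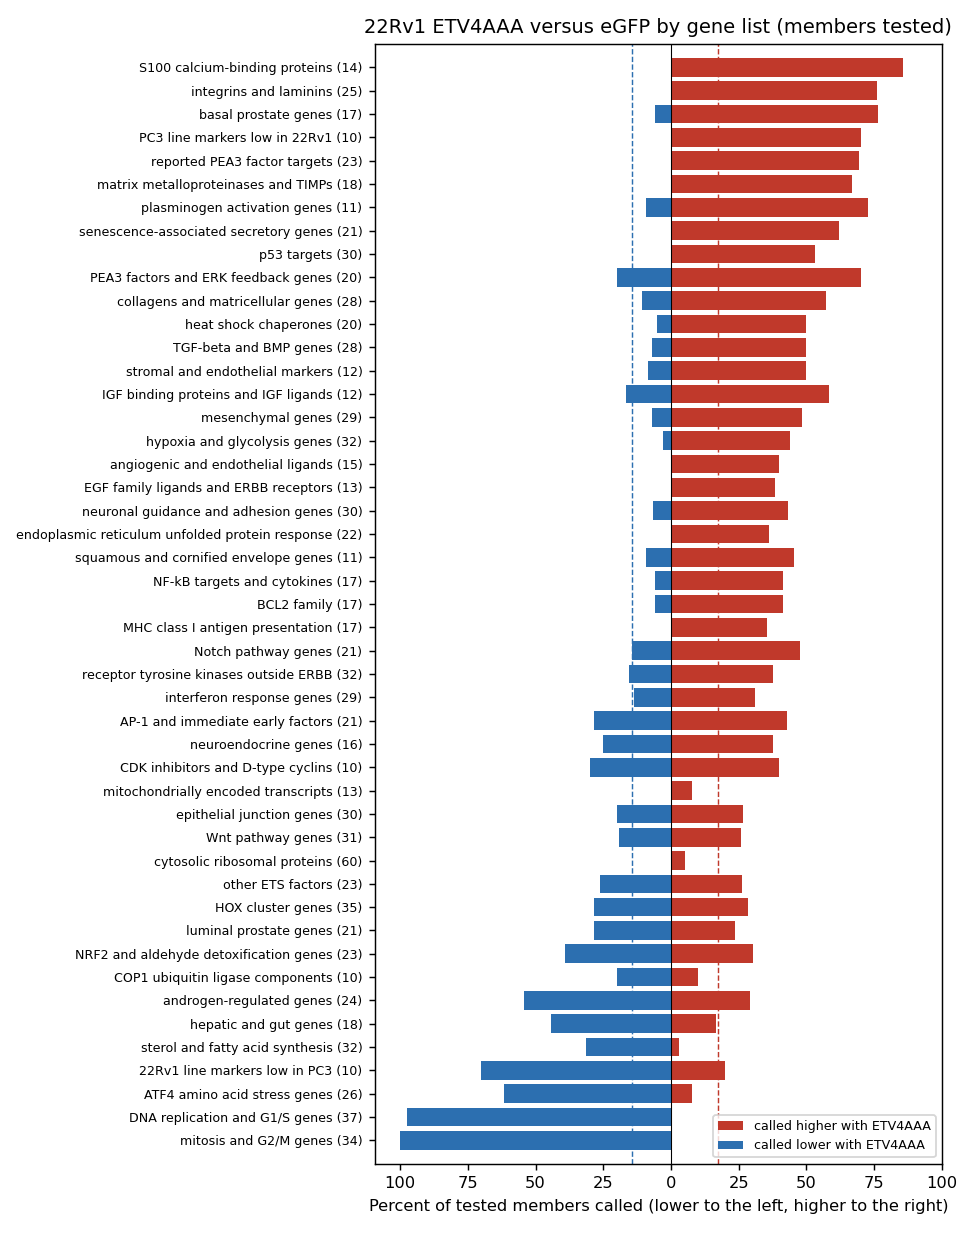
Bars give the percent of the tested members of each list called lower (to the left, blue) and higher (to the right, red) with ETV4AAA in 22Rv1, with the number tested in brackets; only lists with at least 10 tested members are drawn. Dashed lines mark the percent over all genes tested, 14.4% lower and 17.4% higher. Lists run from S100 genes, 12 of 14 higher, down to mitosis genes, 34 of 34 lower. Genes at 0 counts with eGFP, 3 of the 14 S100 genes among them, could only be called higher.

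Among abundant transcripts, a few carried the largest differences in level. SPARC came first. TPT1, translationally controlled tumour protein, had 2868 and 3371 CPM in ETV4AAA libraries, against 878 and 1022 CPM in eGFP libraries (log2 change 1.72 ± 0.18). PPP1R1B, the phosphatase inhibitor DARPP-32, had 1232 and 1176 CPM in ETV4AAA libraries, against 66.8 and 63.1 CPM in eGFP libraries (4.21 ± 0.13). CD63, a tetraspanin of late endosomes, had 1878 and 2010 CPM in ETV4AAA libraries, against 768 and 748 CPM in eGFP libraries (1.36 ± 0.12). TMSB10, an actin-binding thymosin, fell to 2701 and 2801 CPM in ETV4AAA libraries, against 4724 and 4248 CPM in eGFP libraries (-0.71 ± 0.18). TMSB10 lost its call without either ETV4AAA library and without the first eGFP library, at adjusted p from 0.0595 to 0.0776.

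Ribosomal protein genes moved little. Of 60 tested, 3 were called higher and none lower, with a median log2 change of 0.26. No call remained with upper-quartile factors, and 22 were called with no filter on low counts. In 46 of the 60 both ETV4AAA libraries were above both eGFP libraries, against 32.5% of all tested genes. RPLP0 had 5933 and 6346 CPM in ETV4AAA libraries and 5800 and 5236 CPM in eGFP libraries (0.15 ± 0.19). Of 13 mitochondrially encoded transcripts 1 was higher, and none with upper-quartile factors.

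Markers of the 2 cell lines give a further reference. Of 10 genes that mark 22Rv1 against PC3, 7 were lower and 2 were higher, and of 10 that mark PC3 against 22Rv1, 7 were higher and none was lower. The PC3 markers summed to 461 and 461 CPM in ETV4AAA libraries and to 134 and 145 CPM in eGFP libraries, and CD44 made up most of that. UCHL1, a PC3 marker with 524 and 545 CPM in PC3 eGFP libraries, had 0.954 and 1.09 CPM in ETV4AAA libraries and 0.677 and 0.412 CPM in eGFP libraries. COL1A2, a fibrillar collagen gene with 352 and 361 CPM in PC3 eGFP libraries, had 0.621 and 0.617 CPM in 22Rv1 ETV4AAA libraries, against 0.0615 and 0 CPM in 22Rv1 eGFP libraries.

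Set against PC3, the effect of ETV4AAA differed in many genes. In PC3, ETV4AAA against eGFP gave 858 called genes (3.69%). The test of the difference between the lines gave 2203 genes with a higher effect in 22Rv1 (9.48%) and 1563 with a lower one (6.73%), 3766 in all. Without the first PC3 eGFP library that count was 2390 and without the second 2317. ETV4 had 223 and 109 CPM in the PC3 ETV4AAA libraries, against 116 and 126 CPM in PC3 eGFP libraries, so the second PC3 ETV4AAA library was not above its controls in ETV4 RNA. DUSP6 was called in both lines, at 96.5 and 111 CPM in PC3 ETV4AAA libraries, against 75.5 and 73.1 CPM in PC3 eGFP libraries, and its log2 change was 5.51 ± 0.18 higher in 22Rv1 (adjusted p = 8.73e-09). ETV1 fell in 22Rv1 and differed by -0.10 in PC3 (interaction -2.06 ± 0.19, adjusted p = 1.53e-05). For the replication and mitosis genes the effect was lower in 22Rv1 in 30 of 37 and 33 of 34 cases, and none was called in PC3. Of the 151 silent genes, 37 were at 1 CPM or more in both PC3 eGFP libraries and 86 were under 0.1 CPM in both. G6PC, glucose-6-phosphatase, named after its values were seen, was the single gene that met the silent-to-on rule in both lines, with 3.84 and 4.03 CPM in 22Rv1 ETV4AAA libraries, against 0 and 0.0412 CPM in 22Rv1 eGFP libraries, and with 1.17 and 1.31 CPM in PC3 ETV4AAA libraries, against 0.0403 and 0.0645 CPM in PC3 eGFP libraries.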

How the data were processed

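Polyadenylated RNA of 12 libraries was sequenced on an Illumina NextSeq 500, per the labels' protocols. The authors deposited 1 table of raw counts per gene, with no normalization. FastQC 0.11.9, STAR 2.5.3a and GRCh38 are named in the submitters' processing notes, and no source used here states the counting program, annotation or strand setting. Gene types and positions came from GENCODE 29, in which 99.5% of the 58302 identifiers were found. A symbol shared by several identifiers applied to 1717 of them.

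Counts were analysed with edgeR 4.0.16 in R 4.3.3 over all 12 libraries in 6 groups of 2. Genes passed edgeR's expression filter (23238), libraries were scaled by TMM, and quasi-likelihood tests with Benjamini-Hochberg adjustment over all genes tested used a threshold of 0.05. SE is the absolute log2 change over the square root of F, and it can be too small where a group has 0 to 3 counts. The common biological coefficient of variation was 0.149 on 6 residual degrees of freedom. The test was checked on simulated data. Libraries held 41698738 to 51199207 counts, so 0 counts in 2 libraries leave a floor of 3 counts for the pair. Alternatives used DESeq2 1.42.0, limma 3.58.1, other scalings and filters, and each library left out.

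ETV4, ETV1 and ETV5 were always eligible to be named. Further eligible genes were the 15 largest rises and falls and 10 largest differences in CPM, among called genes of at least 5 CPM whose libraries did not overlap, the 15 highest silent genes, and from each list up to 5 called genes of lowest adjusted p and 2 uncalled genes of highest level. A selection of these is named, plus markers of cell types and the single genes said to be chosen after their values were seen. The gene lists and the comparison were chosen with earlier results of these data known. Promoters were RefSeq windows of 250 bases upstream of the start of the first entry per gene. Same-numbered ETV4AAA and eGFP libraries deviated together across 11525 genes (correlation 0.64), while ETV4AAA and ETV4WT libraries did not (-0.52), and the labels give no shared batch, so no block was used.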

Additional observations from a re-analysis of the deposited data

Results flagged for a closer look

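The effect of ETV4AAA differed between 22Rv1 and PC3 in 3766 genes, by the interaction term of the edgeR fit at an adjusted p under 0.05. PC3 had 569 higher and 289 lower calls among the 23238 genes tested. Of the 4054 genes called higher in 22Rv1, 262 were also called higher in PC3 and 85 were called lower there. Of the 3341 called lower in 22Rv1, 59 were also called lower in PC3 and 53 were called higher there. Whether these overlaps differ from those of unrelated calls was not tested. The genes that follow are the named ones called in opposite directions. No group had the 4 samples needed to look for a sample far from the rest of its group.

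SPARC rose in 22Rv1 and had 47.5 and 43.9 CPM in PC3 ETV4AAA libraries, against 70.1 and 68.8 CPM in PC3 eGFP libraries (log2 change -0.60). Its interaction was 18.00 on the log2 scale, a fitted value that rests on 1 count in the 22Rv1 eGFP libraries and is no bound. The interaction was 7.04 for TRIB2, 6.93 for GDF15 and 6.93 for CLDN1, with PC3 log2 changes of -0.84, -2.73 and -1.01 in that order. FN1 had an interaction of 4.16 and a PC3 log2 change of -0.59. TRIB1 went the other way, with an interaction of -1.72 and a PC3 log2 change of 1.01. The second PC3 ETV4AAA library did not exceed PC3 eGFP libraries in ETV4 RNA, and its part in these differences was not tested gene by gene. Without it the interaction count was 2951.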

How the results depend on the processing

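For ETV4AAA against eGFP in 22Rv1, the total of 7395 calls was 6271 to 7889 under 8 other scalings, filters, tests and fits. The replicate block gave 7421. With upper-quartile factors 49.3% of calls were higher, against 54.8%, and the median log2 change over all genes was -0.07. Leaving out 1 library gave 5259 to 5423 calls, with 2049 to 2431 lower; the lone library of a group was then assumed to vary like the other groups. Leaving out 1 library gave 3437 to 4172 calls against ETV4WT, with 1015 to 1675 lower. It gave 2317 to 4685 for the interaction with PC3, with 804 to 1571 lower. Silent genes that came on numbered 106 with silent as under 0.05 CPM, 235 with silent as under 0.2 CPM, 271 with on as at least 0.5 CPM, and 165 to 182 with 1 library left out. With the replicate block the counts against ETV4WT and for the interaction were 5503 and 4066. A block with the ETV4WT numbers crossed, chosen after seeing the data, gave 6966 calls against ETV4WT.

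Of 144 named genes 14 changed call or sign in some alternative. Signs changed only for genes that missed the threshold. SYP had log2 changes of 0.0127 with DESeq2's size factors and 0.0127 with its Wald test, 0.0349 with no filter, 0.0308 with at least 1 CPM in 2 libraries, 0.0228 in the 22Rv1 fit, and -0.0645 to 0.0278 without a library. IGFBP2 had -0.0271 with upper-quartile factors and -0.24 to 0.329 without a library. SHMT2 had -0.063 with upper-quartile factors, -0.00432 in the fit of 4 libraries and -0.156 to 0.132 without a library. Without a library ERBB3 had -0.141 to 0.00387 and ERBB2 -0.35 to 0.0413. The cause was not tested. COL1A1 and KRT8 passed in the 22Rv1 fit (adjusted p = 0.0323 and 0.0176) and with no filter (0.00518 and 0.00149), and KRT8 in the 4-library fit (0.0447). With 2 libraries per group, and 1 count near 0.02 CPM, small changes of rare transcripts were not detectable.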
